A study of Mus musculus with 16 samples.

Results

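AP-1 is a family of transcription factors that bind DNA as dimers through a basic leucine zipper. JUN proteins pair with each other or with FOS proteins, FOS proteins need a JUN partner, and some ATF and BATF proteins join the same dimers. Most JUN and FOS genes are immediate early genes, whose transcripts appear within minutes of a growth factor or cytokine and usually fade within hours, while the proteins are also switched on by phosphorylation, which an expression array does not measure. MEKK1, the kinase encoded by MAP3K1, lies upstream of the JNK and ERK kinases that act on AP-1. AP-1 genes were described here by symbol: of the 10 named (JUN, JUNB, JUND, FOS, FOSB, FOSL1, FOSL2, ATF2, ATF3 and BATF3), 8 were found among 18132 genes, 6 of them under the same symbol and 2 under an older one that RefSeq lists (JUND as JUND1, BATF3 as 9130211I03RIK). The levels of FOSL1 and FOSL2 were not analysed here.

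The data were 16 Illumina Mouse 8 arrays. They measured primary mammary fibroblasts grown out of inguinal glands of female 129S6 mice aged 8 to 10 weeks, either MEKK1+/+ or MEKK1-/-. All cells grew in DMEM with 10% FBS. For 8 h they were then left in that medium (untreated) or exposed to CM, the same medium conditioned by MDA-MB-231 cells, a human breast cancer line, with 4 arrays for each genotype and treatment. By the study's methods each genotype was represented by 3 mice and each group by 4 cultures, without saying which mouse gave which culture, so some cultures of a group must have come from the same mouse and p-values measure the spread between cultures. The mice themselves, and not only the cultured cells, were MEKK1-/-.

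The values were gene intensities, compared as quantile-normalized log2 intensity, in which a difference of 1 is a 2-fold change. Array medians as deposited ran from 114 to 170.1. A background level was set on each array at the 99th percentile of 1075 olfactory receptor genes, which fibroblasts do not normally use, and it lay between 7.20 and 7.34 on the normalized log2 scale. Arrays of a group correlated at 0.979 to 0.996 across genes, and no pair of arrays was identical. Of 15 fibroblast markers, 13 to 15 were above background on each array. Of 19 macrophage markers, 12 to 15 were above background, although the defining genes PTPRC, ITGAM, FCER1G and MSR1 were above it on 0 arrays. The summed macrophage marker intensity was 26178 to 66437 over the MEKK1+/+ arrays and 12972 to 57028 over the arrays labelled MEKK1-/-. Epithelial markers summed to 12946 and 11850 on the untreated and CM arrays of MEKK1-/- replicate 1 and to at most 2579 on every other array. MAP3K1, the targeted gene, read 7.95, 7.77, 7.60 and 7.51 on the untreated MEKK1+/+ arrays and 8.06, 8.31, 8.17 and 8.41 on the untreated arrays labelled MEKK1-/-. It was thus not lower but 0.53 higher on the latter, without overlap (SE 0.15, limma adjusted p = 0.465, 2-sided exact permutation p = 0.0286, the smallest that 4 against 4 allows). With CM the MEKK1+/+ arrays read 7.42, 7.71, 8.18 and 7.64 and the arrays labelled MEKK1-/- 8.08, 7.79, 8.29 and 8.13, a difference of 0.33 (limma adjusted p = 0.605). Where the array's probe lies relative to the altered part of the gene is not given in the sources used here, so the level does not check the genotype, and every genotype difference refers to arrays as labelled.

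JUN, JUNB, JUND, FOS and ATF2 were above background on all 16 arrays. FOSB was above background on 8 arrays and ATF3 on 2, while BATF3 was at or below it on all 16. No AP-1 gene passed an adjusted p of 0.05 in any of the 5 comparisons (limma, Benjamini-Hochberg over 18132 genes). Of all genes, 5.01% passed for the response to CM in MEKK1+/+ cells, 4.69% for that in MEKK1-/- cells, 0% and 0.00552% between genotypes without and with CM, and 0% for the interaction. Among the AP-1 genes JUNB had the largest mean difference between CM and untreated cells, higher by 0.49 in MEKK1+/+ and by 0.72 in MEKK1-/- fibroblasts, and the second reached an unadjusted but not an adjusted p under 0.05. FOS had a lower mean with CM in both genotypes, by 0.26 and 0.43, neither of them called.

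**Figure D1:**
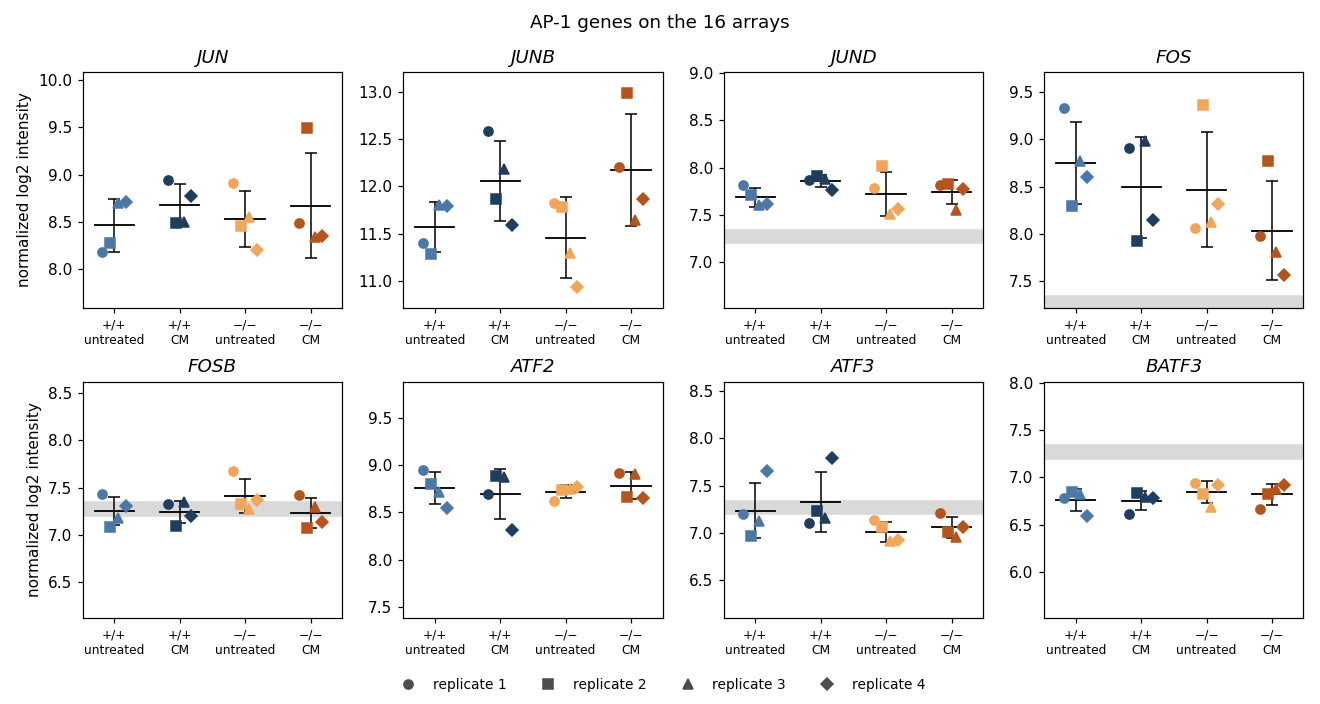
Normalized log2 intensity of each AP-1 gene (vertical axes, each spanning the same number of log2 units) on every array, by genotype and treatment (horizontal axes). Marker shapes give the replicate number, black lines the group mean and SD (n = 4), and the grey band the background level of 7.20 to 7.34. The groups overlap for every gene, and BATF3 lies under the band throughout.

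The genes lie on 6 chromosomes of the mouse assembly GRCm38.p6, as RefSeq gives them: Jun at chr4:95049036-95052222, Junb at chr8:84976909-84978748, Jund at chr8:70697739-70700616, Fos at chr12:85473890-85477274, Fosb at chr7:19302696-19310118, Atf2 at chr2:73816509-73892677, and Atf3 and Batf3 as near neighbours at chr1:191170296-191183333 and chr1:191098414-191108943. The 250 bases before the start site of Junb, Fos and Jun are shown because among the AP-1 genes these varied most between arrays. Capitals mark TGACG, the core of a site for ATF and CREB proteins, in Junb and Fos, and TGACATCA, a close variant of the full ATF and CREB motif TGACGTCA, in Jun. The Junb sequence spans chr8:84978749-84978998 (minus strand), the Fos sequence chr12:85473640-85473889 (plus strand) and the Jun sequence chr4:95052223-95052472 (minus strand), each written 5′ to 3′ and ending at the base before the RefSeq start.
Junb: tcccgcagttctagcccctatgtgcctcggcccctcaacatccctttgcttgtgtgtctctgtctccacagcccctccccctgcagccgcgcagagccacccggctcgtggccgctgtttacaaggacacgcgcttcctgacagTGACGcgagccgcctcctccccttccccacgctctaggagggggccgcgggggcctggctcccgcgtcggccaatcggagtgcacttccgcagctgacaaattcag
Fos: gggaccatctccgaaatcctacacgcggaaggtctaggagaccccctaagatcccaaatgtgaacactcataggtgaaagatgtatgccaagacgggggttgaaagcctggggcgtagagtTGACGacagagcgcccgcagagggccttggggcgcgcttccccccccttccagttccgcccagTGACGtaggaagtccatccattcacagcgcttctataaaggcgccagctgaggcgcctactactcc
Jun: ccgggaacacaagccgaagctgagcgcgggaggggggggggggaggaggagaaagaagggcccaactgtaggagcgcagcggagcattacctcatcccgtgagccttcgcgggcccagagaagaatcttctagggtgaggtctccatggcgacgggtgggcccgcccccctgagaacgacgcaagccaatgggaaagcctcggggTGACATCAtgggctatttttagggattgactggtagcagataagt

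In Junb the capitals lie 106 to 102 bases before the start, in Fos at 129 to 125 and 66 to 62, and in Jun at 45 to 38. All motifs were searched on both strands. TGACG, which is part of TGACGTCA, was in 17.77% of 32851 mouse promoter windows of the same length and in 4 of 9 AP-1 gene windows (Junb, Fos, Fosb and Atf3, with none given for Fosl1). TGACATCA was in 2.93% of all windows and in that of Jun alone among the 9. The AP-1 motifs TGACTCA (4.46% of windows) and TGANTCA (6.75%, which includes the former), TGACGTCA (1.55%) and the CArG box bound by SRF (1.47%) matched in 0 of the 9 windows. A kappaB motif, the letters bound by NF-kappaB, was in 3.9% of windows and in those of Fos, Fosb and Fosl2. TGACG and TGACATCA were added to the search after the sequences were seen, and a match describes letters only. Bases outside these windows were not searched. A motif without a match, such as the CArG box in Fos, can therefore still lie farther from the start.

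JUNB is a JUN protein that often counters JUN on growth genes and drives cytokine genes in inflammatory settings. In untreated MEKK1+/+ fibroblasts its normalized log2 intensity was 11.40, 11.28, 11.80 and 11.79, and with CM 12.58, 11.87, 12.18 and 11.59. Of the treated arrays, 3 lay above all untreated ones and replicate 4 among them, so the groups overlapped. The means were 11.57 ± 0.27 and 12.06 ± 0.43 (SD, n = 4), a difference of 0.49 (SE 0.28, 95% interval -0.11 to 1.09, limma adjusted p = 0.437, exact permutation p = 0.114, 2-sided as all others). With the values as deposited the difference was 0.04, the median gene being lower by 0.28 on the treated arrays of this genotype. Without CM replicate 1 the normalized difference was 0.31.

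In MEKK1-/- fibroblasts JUNB read 11.82, 11.78, 11.29 and 10.93 untreated and 12.20, 12.99, 11.64 and 11.86 with CM. Again 3 treated arrays lay above all untreated ones, and the lowest treated array, replicate 3, lay among them. The means of 11.46 ± 0.43 and 12.17 ± 0.59 (SD, n = 4) differed by 0.72, a fold of 1.64 (SE 0.28, 95% interval 0.12 to 1.32). The unadjusted p was 0.023 by limma and the adjusted p 0.197, with an exact permutation p of 0.114. JUNB was the only one of the 8 AP-1 genes with an unadjusted p under 0.05 in this comparison, where 16.2% of all genes had one. Same-numbered arrays of this genotype were treated as pairs because every such correlation passed 0.1. The pairing is uncertain, as untreated replicates 3 and 4 correlated more with a CM array of another number. JUNB was higher with CM in 4 of 4 same-numbered pairs, by 0.35 to 1.21, against 3 of 4 in MEKK1+/+ cells, by -0.20 to 1.18. The share of all genes alike in 4 of 4 pairs was not counted. With the replicate number as a block the adjusted p was 0.0579 (SE 0.20), still not called. In MEKK1+/+ cells, not treated as pairs, the same block gave a limma adjusted p of 0.200. Without CM replicate 2 the unpaired MEKK1-/- difference was 0.44, and without both arrays numbered 2 it was 0.55.

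FOS forms AP-1 with JUN proteins and is a classical early gene of serum and growth factor signalling. In untreated MEKK1+/+ fibroblasts it read 9.34, 8.30, 8.77 and 8.60 and with CM 8.91, 7.93, 8.98 and 8.15. Replicate 2 was the lowest array under both treatments, and the groups overlapped. The means of 8.75 ± 0.44 and 8.49 ± 0.53 (SD, n = 4) differed by -0.26 (SE 0.34, 95% interval -0.97 to 0.46, limma adjusted p = 0.809). As deposited the difference was -0.64 (adjusted p = 0.179), beside the shift of -0.28 in the median gene. With 1 array left out the normalized difference ran from -0.42 to -0.06, the latter without untreated replicate 1.

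In MEKK1-/- fibroblasts FOS read 8.06, 9.36, 8.12 and 8.32 untreated and 7.98, 8.77, 7.81 and 7.57 with CM. Replicate 2 was the highest array under both treatments, and the other treated arrays lay below all untreated ones. The means of 8.47 ± 0.61 and 8.03 ± 0.52 (SD, n = 4) differed by -0.43 (SE 0.34, 95% interval -1.15 to 0.28, limma adjusted p = 0.629, exact permutation p = 0.343). Within the pairs, which are uncertain, FOS was lower in 4 of 4, with differences of -0.76 to -0.08. With the replicate block the limma adjusted p was 0.0743 (SE 0.13), not called, while the block called 1438 of all genes. In MEKK1+/+ cells, not treated as pairs, the same block gave a limma adjusted p of 0.316. The unpaired MEKK1-/- difference was -0.13 without untreated replicate 2 and -0.69 without treated replicate 2.

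**Figure D2:**
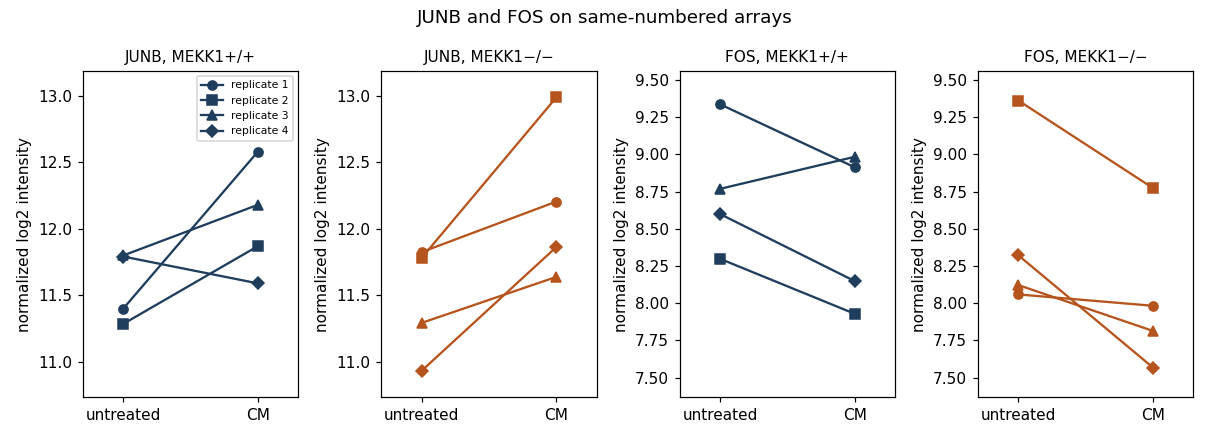
JUNB and FOS (vertical axes, normalized log2 intensity) on untreated and CM arrays of each genotype, with a line joining arrays of the same replicate number. In MEKK1-/- cells the CM array is the higher of all 4 pairs for JUNB and the lower of all 4 for FOS. In MEKK1+/+ cells this holds for 3 of 4, and there the arrays were not treated as pairs, as replicate 1 failed the correlation check. In MEKK1-/- cells the pairing is uncertain for replicates 3 and 4.

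JUN, the founding AP-1 protein and a substrate of JNK, read 8.18, 8.27, 8.70 and 8.71 on untreated MEKK1+/+ arrays and 8.94, 8.48, 8.50 and 8.78 with CM. In MEKK1-/- cells it read 8.91, 8.46, 8.55 and 8.20 untreated and 8.49, 9.50, 8.34 and 8.36 with CM. The treated MEKK1-/- replicate 2 stood apart from the other 3 arrays of its group, and all groups overlapped. The treated minus untreated difference was 0.21 in MEKK1+/+ (95% interval -0.28 to 0.70, limma adjusted p = 0.760) and 0.14 in MEKK1-/- cells (95% interval -0.35 to 0.63, limma adjusted p = 0.872). The first was -0.16 with the values as deposited, and the second was -0.14 without the treated replicate 2.

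JUND, the JUN protein that most cells carry at rest, read 7.82, 7.71, 7.60 and 7.61 on untreated and 7.87, 7.91, 7.88 and 7.76 on CM arrays of MEKK1+/+ cells. Of the treated arrays, 3 lay above all untreated ones. The difference of 0.17 (SE 0.10, 95% interval -0.04 to 0.38, limma adjusted p = 0.441, exact permutation p = 0.0571) turned to -0.16 as deposited. In MEKK1-/- cells JUND read 7.79, 8.01, 7.51 and 7.56 untreated and 7.81, 7.83, 7.55 and 7.77 treated, a difference of 0.02 within a wide overlap.

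ATF2 is made constitutively and is activated by JNK and p38 on the protein. It read 8.95, 8.80, 8.71 and 8.55 untreated and 8.70, 8.89, 8.87 and 8.31 with CM in MEKK1+/+ cells, and 8.61, 8.74, 8.75 and 8.77 untreated and 8.92, 8.66, 8.90 and 8.65 treated in MEKK1-/- cells. The differences were -0.06 (95% interval -0.31 to 0.19) and 0.07 (95% interval -0.19 to 0.32). Among the AP-1 genes above background on every array, ATF2 had the narrowest range of its 4 group means, 0.09.

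The remaining genes gave little or no signal over background. FOSB, a close relative of FOS, lay between 7.07 and 7.67 over the 16 arrays, its highest value on untreated MEKK1-/- replicate 1. Its treated minus untreated difference was -0.01 in MEKK1+/+ and -0.18 in MEKK1-/- cells (95% interval of the latter -0.40 to 0.04, limma adjusted p = 0.441). ATF3, a stress-induced partner of JUN, lay between 6.91 and 7.79 and was above background only on replicate 4 of both MEKK1+/+ groups, at 7.65 and 7.79. BATF3, a factor of dendritic cell development, lay between 6.59 and 6.94, under the background on every array, so its differences are those of background values.

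**Figure D3:**
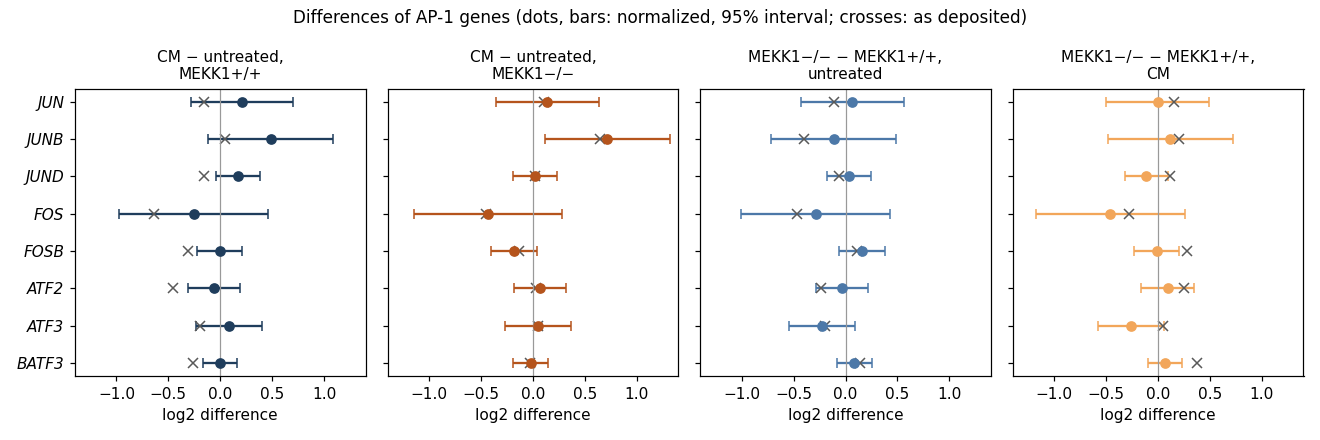
Log2 difference of each AP-1 gene (rows) in the 4 comparisons (panels), as normalized mean and 95% interval of the limma fit (dots and bars) and with the values as deposited (crosses). JUNB in MEKK1-/- cells, at 0.72 with an interval of 0.12 to 1.32, is the one whose interval leaves out 0. The crosses are shifted left in the first panel and right in the last, where the median gene as deposited lies at -0.28 and 0.28.

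For the response to CM, 0 of the 8 genes were called in either genotype. An unadjusted p under 0.05 was reached by 0 and 1 of them, against 16.8% and 16.2% of all genes. Treated and untreated arrays did not overlap for 0 of 8 in either genotype, against 9.7% and 10.4% of all genes. The median of the 8 differences, BATF3 included, was 0.04 in both genotypes, against -0.00 over all genes. The z-score comparison that the study's methods name also called 0 of the 8. At 5.01% and 4.69% of all genes called, 0 of 8 is near the background share and is not a result about AP-1 genes.

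For genotype, the question was whether cells labelled MEKK1-/- differed in AP-1 transcripts with or without CM. No AP-1 gene was called in either comparison by limma, and none had an unadjusted p under 0.05 (over all genes 9.27% untreated and 8.09% with CM). In untreated cells JUN differed by 0.06 (95% interval -0.43 to 0.56), JUNB by -0.11 (-0.71 to 0.49), JUND by 0.03 (-0.18 to 0.24) and ATF2 by -0.04 (-0.29 to 0.22), MEKK1-/- minus MEKK1+/+. With CM the same genes differed by -0.01, 0.12, -0.11 and 0.09. FOS had the lower mean in MEKK1-/- cells under both treatments. The difference was -0.28 untreated (95% interval -1.002 to 0.43, limma adjusted p = 0.812) and -0.46 with CM (95% interval -1.18 to 0.26, limma adjusted p = 0.726, exact permutation p = 0.200). Of the 4 MEKK1-/- arrays, 2 lay below all MEKK1+/+ arrays in each treatment, but the highest FOS value of all was on an untreated MEKK1-/- array. ATF3, mostly under background, differed by -0.23 and -0.26, and without replicate 4 of the MEKK1+/+ group compared the differences were -0.09 and -0.11. No group of MEKK1-/- arrays lay wholly above or below its MEKK1+/+ group for any of the 8 genes, against 4.61% of all genes untreated and 4.17% with CM. The macrophage marker sums ran from 29830 to 66370 on untreated MEKK1+/+ and from 12972 to 57028 on untreated MEKK1-/- arrays. Of 19 macrophage markers, 16 untreated and 17 with CM had a lower mean in MEKK1-/- cells (median difference -0.82 and -0.84). Of 10 endothelial markers, 8 and 9 had a higher mean there (median difference 0.20 and 0.18). None of these markers was called, and their part in the AP-1 genotype differences was not tested.

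The interaction, the response in MEKK1-/- minus that in MEKK1+/+ cells, was 0.23 for JUNB (95% interval -0.62 to 1.08) and -0.18 for FOS (95% interval -1.19 to 0.84). For the other 6 genes it lay between -0.17 and 0.13, and all 8 adjusted p-values were 1.00 by limma. At an adjusted p of 0.05, 0 of 18132 genes were called (0%), with 2.61% at an unadjusted p under 0.05. For JUNB the interval holds differences as large as its MEKK1+/+ response in either direction, so equal responses were not shown. In order of the group means, FOS ran from treated MEKK1-/- (lowest) through untreated MEKK1-/- and treated MEKK1+/+ to untreated MEKK1+/+, with steps of 0.43, 0.03 and 0.26, none called. JUNB ran from untreated MEKK1-/- and untreated MEKK1+/+ to treated MEKK1+/+ and treated MEKK1-/-, with steps of 0.11, 0.49 and 0.12, none called either. The range of the 4 group means was 0.72 for both genes, and 95.2% of all genes had a smaller one. All genes here include 8251 at or below background on every array. The pooled within-group SD was 0.53 for FOS and 0.44 for JUNB, so the range alone does not show a difference between groups.

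FOS was set beside the macrophage markers array by array. MEKK1-/- replicate 2, with the highest FOS values of its genotype (9.36 untreated, 8.77 treated), had the highest macrophage sums of it, 57028 and 51028. MEKK1+/+ replicate 2, with the lowest FOS values of its groups, had their lowest sums, 29830 and 26178. Untreated MEKK1-/- replicate 1, by contrast, had the lowest FOS of its group (8.06) with a sum of 30999.8, above the 12972 and 13980.0 of replicates 3 and 4. Over the 16 arrays FOS and the log2 of the summed markers correlated with a Pearson r of 0.77, and with r = 0.81 after group means were removed, a description over arrays that share cultures and normalization. Within the 8 MEKK1+/+ arrays r was 0.82. Within the 8 MEKK1-/- arrays it was 0.72, but 0.094 over the 6 left without replicate 2, so that it rests on those arrays. FOS also correlated with the summed fat cell markers, of which 1 or 2 of 8 were above background, with r = 0.60 over all arrays, 0.11 in MEKK1+/+ and 0.80 in MEKK1-/- cells. That sum is mostly LPL, above background on all 16 arrays, while CFD was above it on 2 and the other fat markers on 0. With the macrophage sum, r for JUNB was 0.48 over all arrays and 0.77 within groups, for JUND 0.56 and 0.67, and for JUN 0.40 and 0.55. Each of the 8 AP-1 genes was set against every marker list, and FOS with the macrophage sum had the highest r over all arrays. FOSB, above background on 8 arrays, had an r of 0.67 with the epithelial and 0.61 with the endothelial sum. The part of any of these cell types in the AP-1 levels was not tested, and in bulk RNA fewer cells of a type and less RNA per cell cannot be told apart.

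**Figure D4:**
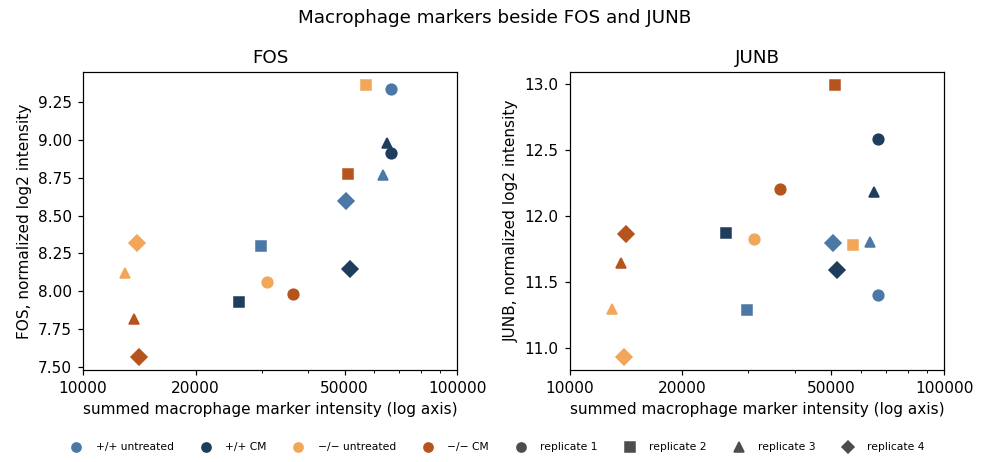
FOS (left) and JUNB (right), as normalized log2 intensity, against the summed normalized intensity of 19 macrophage markers (log axis) on the 16 arrays. Colours give genotype and treatment and shapes the replicate number. The 7 arrays with the highest FOS values are all among the 8 arrays with sums over 50000.

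Over the 16 arrays the 2 genes most like FOS were TMEM68 (r = 0.94) and LY6C1, a surface protein of myeloid and endothelial cells (r = 0.90), among 6925 other genes above background on every array. For JUNB they were PLK3, a stress-responsive kinase (r = 0.93), and CEBPB, a basic leucine zipper factor of inflammation (r = 0.88). For JUN they were BC004044 (r = 0.89) and S100A16, a calcium-binding protein (r = 0.89). JUN and JUNB correlated with r = 0.76, and with 0.58 when treated MEKK1-/- replicate 2, high in both, was left out (n = 15). The like genes were picked as the highest of 6925 values of r, and all of these values describe the 16 arrays only.

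The genes around AP-1 were counted in 5 lists, to be read beside the 5.01% and 4.69% of all genes called for the response to CM in MEKK1+/+ and MEKK1-/- cells. Of 15 other basic leucine zipper genes that pair with or compete with AP-1, 1 was called higher in MEKK1+/+ cells and 0 were called in MEKK1-/- cells. The riser was NFE2L2, the oxidative stress factor, at background on all 4 untreated arrays and just above it on the 4 treated ones (7.02 and 7.36, at least 1.09-fold higher, limma adjusted p = 0.00809). As deposited this call was lost (adjusted p = 0.670). In MEKK1-/- cells, mostly under background, NFE2L2 was higher by 0.15 without overlap of the groups (limma adjusted p = 0.270). Of 20 kinases of the ERK, JNK and p38 routes, 0 were called in MEKK1+/+ cells and 2 were called higher in MEKK1-/- cells. MAPK3, which encodes ERK1, rose by 0.46 (limma adjusted p = 0.0150) and MAPK11, which encodes p38 beta, by 0.40 (limma adjusted p = 0.0335). Neither call held as deposited (adjusted p of 0.599 and 0.811), and the MAPK11 call was lost without 7 of the 16 arrays, 1 at a time. In MEKK1+/+ cells MAPK3 and MAPK11 were higher by 0.20 and 0.35 (limma adjusted p = 0.341 and 0.0617). Their interactions of 0.26 and 0.05 were not called, so a rise particular to MEKK1-/- cells was not shown.

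Of 13 measured factors that act on JUN and FOS genes or on JUN turnover, SRF alone was called. SRF binds the CArG box of Fos and other early genes and carries CArG boxes in its own promoter, shown here because SRF fell in both genotypes. The 60 bases at chr17:46556201-46556260 (minus strand, GRCm38.p6) end 38 bases short of the last base before the RefSeq start, with both CArG boxes in capitals, 82 to 73 and 62 to 53 bases before it.
Srf: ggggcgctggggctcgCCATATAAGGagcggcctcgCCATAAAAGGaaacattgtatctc

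SRF read 9.78, 9.96, 9.93 and 9.41 on untreated and 8.97, 8.96, 8.68 and 8.51 on treated MEKK1+/+ arrays. On MEKK1-/- arrays it read 10.61, 9.92, 10.12 and 10.15 untreated and 9.63, 8.91, 8.93 and 8.999 treated. Treated and untreated arrays did not overlap in either genotype. The log2 level fell by 0.99 (SE 0.18, limma adjusted p = 0.00573) and by 1.08 (SE 0.18, adjusted p = 0.00313). As deposited the second was -1.10 with an adjusted p of 0.124.

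Of 22 other immediate early genes, 1 rose and 1 fell in MEKK1+/+ cells, and 1 rose and 2 fell in MEKK1-/- cells, beside 5.01% and 4.69% of all genes called. IER3, a survival gene induced by NF-kappaB, rose by 1.34 in MEKK1-/- cells (SE 0.29, limma adjusted p = 0.0146). That call was lost without both MEKK1-/- arrays numbered 2 (limma adjusted p = 0.0569) and without 2 of the 16 arrays in turn. In MEKK1+/+ cells the IER3 difference of 1.05 passed narrowly (adjusted p = 0.0483), the groups overlapped (exact permutation p = 0.0571), and 8 of 12 alternatives lost the call. KLF2, a factor that restrains inflammation, fell by 1.00 (adjusted p = 0.0368) and 1.05 (adjusted p = 0.0299). The calls were lost when 6 (MEKK1+/+) and 5 (MEKK1-/-) of the 16 arrays were left out in turn, and the MEKK1-/- call also as deposited (adjusted p = 0.238) and with equal medians (adjusted p = 0.0582). ZFP36, which promotes decay of cytokine and early gene transcripts, fell by 0.79 in MEKK1-/- cells (adjusted p = 0.00164, but 0.198 as deposited), and its difference in MEKK1+/+ cells was -0.32 (adjusted p = 0.174), with an interaction of -0.47 (adjusted p = 1.00). The median difference of the list was -0.00 in MEKK1+/+ and -0.04 in MEKK1-/- cells, close to that of all genes.

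Of 29 genes described as AP-1 targets, 4 rose and 1 fell in MEKK1+/+ cells, and 6 rose and 1 fell in MEKK1-/- cells, beside 5.01% and 4.69% of all genes called. The largest rises in MEKK1+/+ cells were ICAM1, an adhesion molecule, by 2.67 (limma adjusted p = 0.000434), CCL5, a chemokine, by 2.62 (adjusted p = 0.00812), and MMP9, a matrix protease, by 2.57 (adjusted p = 0.0309). In MEKK1-/- cells ICAM1 rose by 3.55 (limma adjusted p = 5.94e-05) and MMP9 by 3.31 (limma adjusted p = 0.00772). CSF2, a myeloid growth factor at background on all 4 untreated MEKK1-/- arrays, was at least 5.52-fold higher there (6.87 and 9.73, limma adjusted p = 0.00342). At most the 3 largest called rises of each genotype are named, so a gene named for 1 genotype is not particular to it. Mean CCL5 was 9.07 untreated and 11.69 with CM in MEKK1+/+ cells. In MEKK1-/- cells it was lower under both treatments, at 7.51 and 10.05, though neither genotype difference was called. Untreated MEKK1-/- replicates 3 and 4 were under background for CCL5 (6.84 and 6.92). Mean CSF2 was 7.61 untreated and 10.09 with CM in MEKK1+/+ cells. Untreated replicates 1, 2 and 3 of that genotype were under background for CSF2 (7.16, 6.79 and 7.07), and replicate 4 read 9.44. EDN1, the vasoconstrictor endothelin 1, fell by 1.45 (adjusted p = 0.00226) and 1.83 (adjusted p = 0.000475), with 3 of the 4 treated MEKK1-/- arrays above background. The MMP9 call in MEKK1+/+ cells was lost without 5 of the 16 arrays in turn and under 3 of 12 alternatives, the fit restricted to that genotype among them. The median of the list was 0.42 and 0.47 (as deposited 0.07 and 0.42), against 0.04 for the AP-1 genes themselves in both genotypes. The macrophage marker sums of treated arrays covered 26178 to 66437 in MEKK1+/+ and 13710 to 51028 in MEKK1-/- cells, close to the untreated ranges. Several of these genes are also described as targets of NF-kappaB, and the list was drawn up with earlier results of these data known. In both genotype comparisons and the interaction, 0 genes of every list were called. Of all genes, 0% and 0.00552% were called between genotypes without and with CM, and 0% for the interaction. These counts are therefore not a result about the lists.

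**Figure D5:**
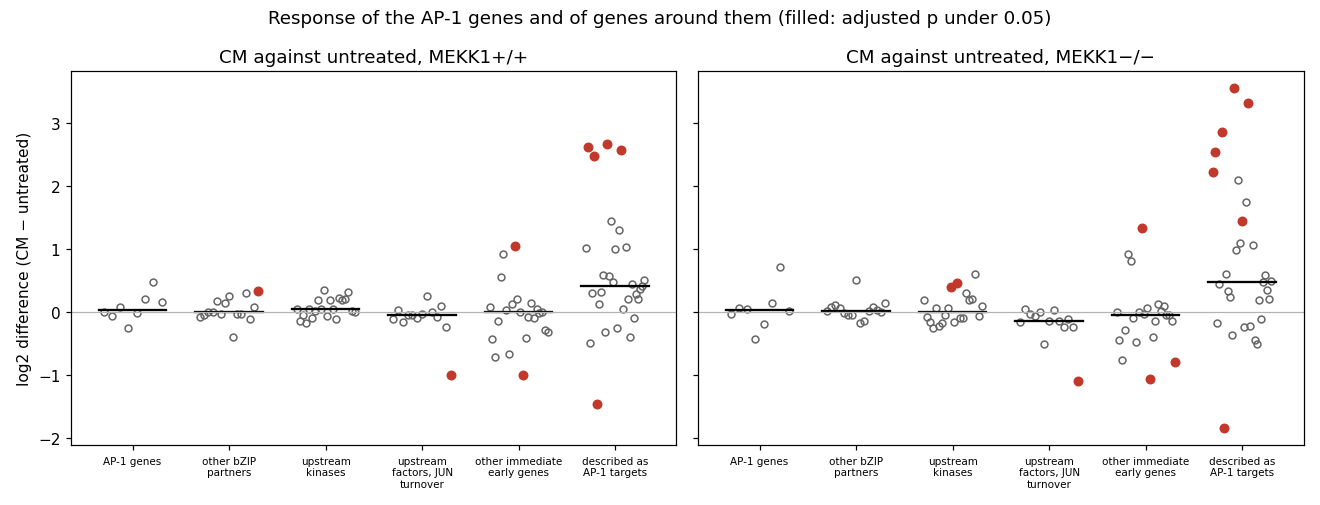
Log2 difference between CM and untreated cells (vertical axis) of each gene of the AP-1 list and of 5 lists around it (horizontal axis), for MEKK1+/+ (left) and MEKK1-/- (right). Filled red dots have an adjusted p under 0.05 and black lines are list medians. The AP-1 genes hold no filled dot, while the genes described as AP-1 targets reach 2.67 and 3.55.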

How the data were processed

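The files held 1 intensity per gene symbol on each of 16 Illumina Mouse 8 arrays. Per the labels, the deposited intensities had been normalized by the core facility that ran the arrays for the authors. How they were normalized, whether background was subtracted and how several probes were joined into 1 value are not given in the sources used here. Non-normalized values were not used here. All values were above 0, with 0 columns of no sample, and array medians still differed. Low intensities are limited in precision by the number of arrays and by the background.

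Here log2 intensities were quantile normalized and fitted with limma 3.58.1 in R 4.3.3 (lmFit, contrasts.fit, eBayes) over all 16 arrays and 4 groups, with 12 residual degrees of freedom and Benjamini-Hochberg adjustment over 18132 genes. A gene was called at an adjusted p under 0.05. Single genes were also compared by a 2-sided exact permutation test of 4 against 4. Groups came from the labels. Simulated data with 200 genes changed by 1 log2 unit gave recoveries of 94.5% to 97.5% in the 4 pairwise comparisons and 84% in the interaction. The changed genes were drawn at random from all genes, and the noise was independent between arrays. These recoveries therefore do not give the chance of calling a given AP-1 gene. FOS and JUNB had the widest pooled within-group SDs of the AP-1 genes, 0.53 and 0.44. Same-numbered untreated and CM arrays correlated in their deviations from the group means by 0.22 to 0.50 over 6926 genes in MEKK1-/- cells, every pair over 0.1, and were treated as pairs. In MEKK1+/+ cells replicates 2, 3 and 4 correlated by 0.51, 0.12 and 0.61 and replicate 1 by -0.11. As replicate 1 did not pass 0.1, the arrays of MEKK1+/+ cells were not treated as pairs. Untreated MEKK1-/- replicates 3 and 4 correlated more with a CM array of another number (0.34 and 0.69) than with their own (0.22 and 0.28). The pairing of that genotype is therefore uncertain. The pairing comes from the labels' replicate numbers and this check.

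The AP-1 genes and all lists were chosen with earlier results of these data known. Named are every AP-1 gene in the table, MAP3K1, up to 3 largest rises and 3 largest falls among the called genes of each list and comparison, and, for the 3 AP-1 genes with the widest range of group means among those above background on every array, the 2 genes with the highest r. Alternatives were the values as deposited, equal medians, normexp with an offset of 50, a pseudocount of 16, a filter on genes above background on at least 4 arrays, a robust eBayes fit with a trend, a fit of the compared groups alone, replicate blocks, the z-score comparison named in the methods, and each array left out. Leaving out both MEKK1-/- arrays numbered 2, or both numbered 1, was chosen after seeing the data. Promoters and gene positions are those of RefSeq for GRCm38.p6. Protein sequences were not used here.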

Additional observations from a re-analysis of the deposited data

Results flagged for a closer look

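Of 32 groups of 4 arrays examined, 8 genes in 4 groups, 1 held an array far from the others of its group: JUN on the CM array of MEKK1-/- replicate 2, at a normalized log2 intensity of 9.50. The next highest array of that group read 8.49, and this gap was 0.868 of the group's whole range, above Dixon's limit for 4 values. Chance alone gives about 1 such array in 20 groups. The same array held the highest JUNB value of all 16, 12.99, and the highest FOS and macrophage marker values of its group, 8.77 and 51028. The part of those markers in the JUN value was not tested.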

How the results depend on the processing

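No AP-1 gene was called in any comparison under any of the alternatives run, each array left out included. With CM, JUNB was 0.042 to 0.64 higher in MEKK1+/+ and 0.44 to 0.90 higher in MEKK1-/- cells over the settings on the log2 scale, and FOS was lower in both genotypes under every alternative. Differences near 0 changed sign with the scaling, and intensities near background limit FOSB, ATF3 and BATF3.

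With the values as deposited, the median gene shifted by -0.28 in the MEKK1+/+ response, by 0.28 in the genotype comparison with CM and by 0.29 in the interaction. The CM response in MEKK1+/+ cells was -0.16 for JUN, -0.16 for JUND, -0.20 for ATF3 and -0.31 for MAP3K1. The genotype difference in untreated cells was -0.11 for JUN and -0.062 for JUND. The genotype difference with CM was 0.16 for JUN, 0.11 for JUND, 0.28 for FOSB and 0.048 for ATF3. The interaction was 0.26 for JUN, 0.17 for JUND, 0.19 for FOS, 0.17 for FOSB, 0.25 for ATF3, 0.23 for BATF3 and 0.15 for MAP3K1. Called genes then numbered 45 in MEKK1-/- cells, against 851, and in MEKK1+/+ cells 32 of 795 called genes were higher, against 411 of 909. With equal medians, 463 genes were called in MEKK1-/- cells and 7 for genotype with CM. The CM response in MEKK1+/+ cells was 0.027 for BATF3 and -0.019 for MAP3K1. The genotype difference in untreated cells was -0.13 for JUN and -0.082 for JUND. The genotype difference with CM was -0.11 for JUNB and -0.059 for ATF2.

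The z-score comparison called 1916 and 2047 genes for the CM response in MEKK1+/+ and MEKK1-/- cells, 817 and 460 for genotype without and with CM, and 20 for the interaction. In its SD units, the CM response in MEKK1+/+ cells was 0.0092 for BATF3. The genotype difference in untreated cells was -0.012 for JUN and -0.016 for JUND. The genotype difference with CM was 0.00027 for FOSB. With only the groups compared, 591 genes were called in MEKK1+/+ cells and 0 for genotype with CM. The replicate block within genotype gave 1481 calls in MEKK1+/+ cells and 1438 in MEKK1-/- cells. In MEKK1+/+ cells the arrays were not treated as pairs, as replicate 1 failed the correlation check. In MEKK1-/- cells they were treated as pairs, though the pairing is uncertain. The block changed no AP-1 call. The block across the 4 groups kept every count within 1.5 times.

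Without both MEKK1-/- arrays numbered 2, 510 genes were called in MEKK1-/- cells, 4 for genotype untreated and 0 with CM. The CM response in MEKK1-/- cells was -0.16 for JUN. The genotype difference in untreated cells was -0.066 for JUND. The genotype difference with CM was -0.15 for JUNB and 0.039 for FOSB. Without both numbered 1, 1 gene was called for genotype untreated and 2 with CM. The CM response in MEKK1-/- cells was -0.014 for ATF2 and 0.065 for BATF3. The genotype difference in untreated cells was -0.063 for JUN. The genotype difference with CM was 0.053 for JUN. The interaction was 0.12 for JUN and 0.068 for BATF3.

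With each array left out in turn, called genes ran from 506 (without untreated MEKK1+/+ replicate 3) to 1007 in MEKK1+/+ cells, from 477 (without untreated MEKK1-/- replicate 3) to 1027 in MEKK1-/- cells, from 0 to 1 for genotype untreated, from 0 to 2 with CM and from 0 to 1 for the interaction. The CM response in MEKK1+/+ cells ran from -0.061 to 0.053 for FOSB, from -0.13 to 0.065 for ATF2, from -0.071 to 0.22 for ATF3, from -0.060 to 0.044 for BATF3 and from -0.12 to 0.13 for MAP3K1. The CM response in MEKK1-/- cells ran from -0.14 to 0.27 for JUN, from -0.047 to 0.12 for JUND, from -0.00078 to 0.093 for ATF3 and from -0.073 to 0.032 for BATF3. The genotype difference in untreated cells ran from -0.063 to 0.17 for JUN, from -0.23 to 0.064 for JUNB, from -0.065 to 0.10 for JUND and from -0.10 to 0.031 for ATF2. The genotype difference with CM ran from -0.28 to 0.10 for JUN, from -0.15 to 0.30 for JUNB, from -0.079 to 0.039 for FOSB and from -0.036 to 0.16 for ATF2. The interaction ran from -0.35 to 0.056 for JUN, from -0.042 to 0.41 for JUNB, from -0.43 to 0.12 for FOS, from -0.17 to 0.12 for ATF3 and from -0.069 to 0.039 for BATF3. The causes of these changes were not tested.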
